A study of Mus musculus with 30 samples.

Results

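The acyl-CoA thioesterases (Acot genes) are described here in mouse liver, as 9 measured members of 10 named. Each member is represented by the probe set that carries its symbol alone and has the highest mean over all 30 arrays. Acot4 lies only on probe sets shared with Acot3 and has no value. Acot6, Acot10 and Acot11 were measured but are not among the 10 named, and are counted below with the other thioesterases and acyltransferases. The members were selected on their symbols and on mean intensity over all 30 arrays, and the family was picked with results of these arrays in view, so its levels are given first as values, and a test of a comparison that shaped that choice is not independent support.

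The study profiled liver outside tumours, fresh-frozen, on Affymetrix HT MG-430 PM arrays with 1 array per mouse. It used a dietary model of steatohepatitis and liver cancer, the choline-deficient high-fat diet (CD-HFD), and asked how preventive treatment with sulindac, or with aspirin and clopidogrel, alters the liver. Sulindac and aspirin are cyclooxygenase inhibitors, and clopidogrel blocks a platelet receptor for ADP. The groups were 5 healthy mice on chow without CD-HFD, 5 vehicle mice on CD-HFD that had neither hepatocellular carcinoma (HCC) nor fibrosis, 4 vehicle mice on CD-HFD with HCC and fibrosis, 10 mice on CD-HFD given sulindac, and 6 mice on CD-HFD given aspirin with clopidogrel. The labels give no strain, sex, age, dose or time on diet. HCC and fibrosis come together in the labels, so the effects of either cannot be told apart. Mice keep short names from their titles: those of healthy mice begin with Hlth, those of vehicle mice that lacked HCC with Veh_low, those of vehicle mice that had it with Veh_high, and those of the drug arms with Sulin or AspClo.

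Acyl-CoA thioesterases hydrolyse acyl-CoA to a free fatty acid and coenzyme A, and so oppose the acyl-CoA synthetases. Acot1 to Acot6 are close paralogs whose products differ in where they work: Acot1 in the cytosol, Acot2 in the mitochondrial matrix, and Acot3, Acot4 and Acot5 in peroxisomes. The remaining members belong to a structurally unrelated hotdog-fold class. In liver, Acot1, Acot2 and several peroxisomal members are known to be induced by fasting and by ligands of PPAR alpha, the nuclear receptor that controls fatty acid oxidation.

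Acot1, Acot2 and Acot3 were the members whose levels varied most between mice, and Acot1 and Acot2 moved together, so the promoters of these 3 neighbours on chromosome 12 are shown. The windows are from RefSeq (GRCm38.p6), plus strand, 5′ to 3′, and run from 250 bases before to 50 after the annotated start. They lie at chr12:84009252-84009551 for Acot1, chr12:83987611-83987910 for Acot2 and chr12:84051894-84052193 for Acot3, whose first annotated window is shown. Capitals mark matches to the motifs searched.
Acot1: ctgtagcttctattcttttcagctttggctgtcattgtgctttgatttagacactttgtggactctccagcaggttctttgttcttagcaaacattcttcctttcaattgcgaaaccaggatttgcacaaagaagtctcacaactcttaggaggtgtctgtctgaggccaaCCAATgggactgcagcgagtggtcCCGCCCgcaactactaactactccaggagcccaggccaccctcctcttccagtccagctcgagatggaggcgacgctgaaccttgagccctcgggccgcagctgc
Acot2: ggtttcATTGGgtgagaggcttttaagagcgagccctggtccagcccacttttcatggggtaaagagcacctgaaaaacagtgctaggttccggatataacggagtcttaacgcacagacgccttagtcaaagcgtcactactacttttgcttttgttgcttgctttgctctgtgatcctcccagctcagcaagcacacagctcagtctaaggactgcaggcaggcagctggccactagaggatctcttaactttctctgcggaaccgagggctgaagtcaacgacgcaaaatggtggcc
Acot3: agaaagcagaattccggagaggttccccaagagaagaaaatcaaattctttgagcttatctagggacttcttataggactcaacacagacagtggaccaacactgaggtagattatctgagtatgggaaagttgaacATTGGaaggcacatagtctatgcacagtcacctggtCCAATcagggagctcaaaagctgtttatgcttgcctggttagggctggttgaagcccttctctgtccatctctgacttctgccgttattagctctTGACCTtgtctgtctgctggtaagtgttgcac

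The motifs were searched on both strands: the direct repeat bound by PPAR alpha (AGGNCA 2 times with 1 base between), the single nuclear receptor site AGGTCA (which the repeat can contain), the D-box TTANGTAA, the CCAAT box CCAAT and the GC box GGGCGG. The Acot1 window held a CCAAT box at -79 from the start and a GC box on the minus strand at -55. The Acot2 window held a CCAAT box on the minus strand at -244 and no match to the other motifs. The Acot3 window held CCAAT boxes at -113 (minus strand) and -77, and a single receptor site on the minus strand at 19. Over all 32851 mouse promoter windows of this length, 37.4% held a CCAAT box, 35.7% a GC box, 16.3% a single receptor site, 2.32% a D-box and 0.381% the direct repeat. None of these 3 windows held the direct repeat or the D-box. A window was matched for 9 of the 10 members, all but Acot13. The direct repeat was found in none of these 9, and the D-box in that of Acot9 alone. A match is only a match of letters in this window.

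Intensities are given as log2 of the deposited linear values. Differences are log2 differences from a limma fit over all 17097 genes, adjusted by the Benjamini-Hochberg method, and an adjusted p below 0.05 is called. The 30 arrays had like distributions, with medians between 24.1 and 24.6 and minima between 13.8 and 14.8 in linear intensity. All 10 hepatocyte markers lay at or above the median gene, and their summed intensity was between 60564 and 70394 in every mouse. In bulk tissue, fewer cells of a type and less RNA per cell cannot be told apart. The number of arrays limits the precision.

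A subset of 4 of the 6 mice given aspirin with clopidogrel (AspClo_58, AspClo_61, AspClo_63 and AspClo_64) stood apart from all other mice. Xist, the RNA of the inactive X chromosome, was at 10.95 to 11.21 in these 4 and at 4.55 to 5.03 in the other 26. The Y-linked gene Eif2s3y was at 4.14 to 5.21 in the 4 and at 8.37 to 9.14 in the others. Kdm5d and Uty, also Y-linked, were at 4.43 to 4.95 and 4.41 to 4.75 in the 4. In the other 26 they were at 5.97 to 6.74 and 5.28 to 6.26. By expression these 4 mice thus read as female and the other 26 as male, though the labels give no sex. The arm of aspirin with clopidogrel is of mixed sex by this reading, and each other group is male. Nnt, whose sequence differs between C57BL/6 substrains, was at 10.65 to 10.92 in the same 4 mice and at 10.55 to 10.87 with sulindac. It was at 9.70 and 9.92 in AspClo_60 and AspClo_62, and at 9.14 to 10.01 in the healthy and vehicle mice. Nnt level and sulindac therefore cannot be told apart, either against vehicle or against healthy mice. The Acot values for aspirin with clopidogrel that differed are also given without the 4 mice.

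Across the whole table, called genes made up 0.0117% for vehicle against healthy, 0.00% for vehicle without HCC against healthy and 0.0994% for vehicle with HCC against healthy. In vehicle without HCC against healthy, limma called 0 genes, and 909 had an unadjusted p below 0.05 (5.32%). They made up 0.0877% for HCC within vehicle, 0.199% for sulindac against vehicle, 1.96% for aspirin with clopidogrel against vehicle and 0.877% between the drug arms. Against healthy mice they made up 2.98% with sulindac and 2.77% with aspirin and clopidogrel. Among the 9 family members, Acot3 was called for aspirin with clopidogrel against vehicle and between the drug arms. No member was called in the other 7 comparisons. Unadjusted p-values below 0.05 were found for 3 members for HCC within vehicle (Acot1, Acot2 and Acot12), where 8.87% of all genes had one, and for 2 for HCC against healthy (Acot1 and Acot2), where 9.26% had one. They were found for Acot2 with sulindac against healthy and for Acot3 with aspirin and clopidogrel against healthy, where 14.8% of all genes had one in either comparison. For vehicle against healthy (6.73% of all genes), vehicle without HCC against healthy and sulindac against vehicle (10.4% of all genes), 0 members had one. The median log2 difference over the 9 members was -0.10 for HCC, where that of all genes was -0.01. It was -0.01 for aspirin with clopidogrel against vehicle, where that of all genes was 0.00.

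**Figure D1:**
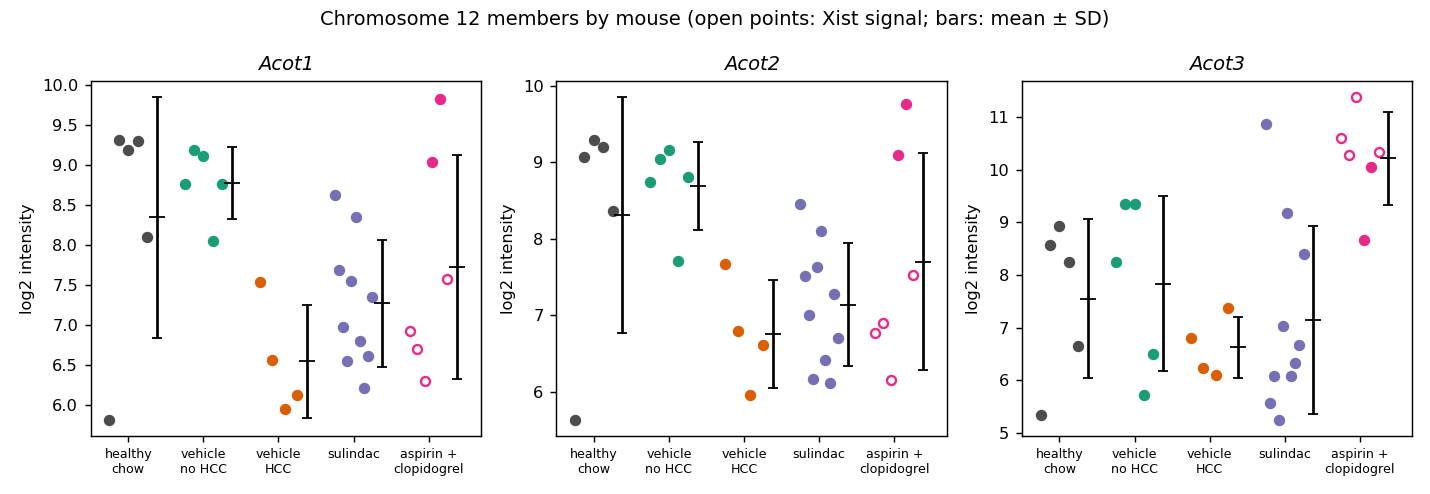
Log2 intensity of Acot1, Acot2 and Acot3 in each of the 30 mice by group, with bars at the mean ± SD and open points for the 4 aspirin and clopidogrel mice with Xist signal. Acot1 and Acot2 had their lowest mean in the vehicle mice with HCC (6.55 and 6.76), and Acot3 its highest with aspirin and clopidogrel (10.22).

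Acot1, the cytosolic long-chain thioesterase, was lower in vehicle mice with HCC than in those without, in every mouse, but the difference was not called. Its log2 intensity was 8.05, 8.76, 8.76, 9.12 and 9.18 in the 5 vehicle mice without HCC and 5.96, 6.13, 6.57 and 7.54 in the 4 with HCC. The groups did not overlap. The means were 8.77 ± 0.45 (SD, n = 5) and 6.55 ± 0.71 (SD, n = 4). The log2 difference was -2.22 (SE 0.663, 95% interval -3.58 to -0.86), or 4.67-fold lower with HCC, with an adjusted p of 0.277 from limma. An exact two-sided permutation test of the mice gave an unadjusted p of 0.00794, the smallest that 126 arrangements can give.

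The healthy mice spanned nearly the whole range of Acot1 by themselves. Hlth_1798 was at 5.82, below all 4 mice with HCC, and the other 4 were at 8.09, 9.19, 9.30 and 9.31. The healthy mean was 8.34 ± 1.5 (SD, n = 5), and HCC against healthy differed by -1.80 (SE 0.663, adjusted p 0.362). With sulindac, Acot1 ran from 6.22 through a median of 7.17 to 8.63, with a mean of 7.27 ± 0.79 (SD, n = 10). The difference from healthy was -1.07 (SE 0.542, adjusted p 0.363). Leaving out Hlth_1798 brought this difference to -1.70 with an adjusted p of 0.0495, so the call for sulindac against healthy depended on that healthy mouse. With aspirin and clopidogrel Acot1 was at 6.30 to 9.81 with a median of 7.25 (mean 7.73 ± 1.40, SD, n = 6), overlapping every other group.

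Acot2, the mitochondrial matrix thioesterase, had nearly the same pattern as Acot1. It was at 7.71, 8.74, 8.81, 9.04 and 9.16 in vehicle mice without HCC and at 5.96, 6.61, 6.79 and 7.67 in those with HCC. The groups did not overlap, though the nearest mice were within 0.05. The means were 8.69 ± 0.57 (SD, n = 5) and 6.76 ± 0.71 (SD, n = 4), a log2 difference of -1.94 (SE 0.681, 3.83-fold lower with HCC, adjusted p 0.341). The exact permutation p was 0.0159. A second, dimmer Acot2 probe set (mean 5.36) gave a smaller difference of -0.48 and followed the one used with r = 0.57 over the 30 mice. The brighter set is of the type whose probes may match related transcripts, and the part that Acot1 RNA takes in its signal was not tested. Acot2 was at 5.64, 8.37, 9.07, 9.20 and 9.29 in healthy mice (mean 8.31 ± 1.54, SD, n = 5), Hlth_1798 again being the low one. With sulindac it was at 6.11 to 8.46 with a median of 7.15 (mean 7.14 ± 0.80, SD, n = 10), a difference of -1.17 from healthy (adjusted p 0.319). Without Hlth_1798 this was -1.84 with an adjusted p of 0.0352. With aspirin and clopidogrel Acot2 was at 6.16 to 9.76 with a median of 7.21.

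Acot12, a cytosolic acetyl-CoA thioesterase abundant in liver, was the third member that was lower without overlap in mice with HCC. It was at 10.13, 10.15, 10.18, 10.23 and 10.40 without HCC and at 9.63, 9.87, 9.96 and 10.05 with HCC. The difference was small, at -0.34 (SE 0.147, 1.26-fold lower, adjusted p 0.482), with an exact permutation p of 0.00794. Thus 3 of 9 members were lower with no overlap between the groups, where 1.98% of all genes tested were. These 3 are not separate observations: between mice of the same group, Acot1 followed Acot2 with r = 0.97 and Acot12 with r = 0.83. The family was also picked with results of these arrays in view, so the count is a description only. A second Acot12 probe set (mean 8.92) gave -0.23.

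A single clock gene was called between the same vehicle mice. Cry1, a repressor of the circadian clock, fell by 2.18 with HCC (adjusted p 0.0190), the call among 17 clock genes. Dbp, a clock output factor, was not called (2.42, adjusted p 0.481). It was at 10.00 and 10.20 in Veh_high_1831 and Veh_high_2088 and at 4.37 and 4.60 in the other mice with HCC. In vehicle mice without HCC, Dbp was at 4.40 to 5.20. Acot1 was at 5.96 and 6.13 in the mice with high Dbp, and at 6.57 and 7.54 in the mice with low Dbp, all below the mice without HCC. Without Veh_high_1831 and Veh_high_2088, the HCC difference was -1.72 for Acot1 (adjusted p 0.878), -1.46 for Acot2 (adjusted p 0.921) and -0.25 for Acot12 (adjusted p 0.951). The labels give no time of day, and the part of the clock genes in these differences was not tested.

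Outside the clock list, no related gene was called for HCC within vehicle, and neither were Acot1 and Acot2. None of 18 acyl-CoA synthetases, 19 other thioesterases and acyltransferases, 20 mitochondrial oxidation genes, 19 peroxisomal genes and 20 other PPAR alpha targets passed the test. Ppara itself differed by 0.20 (adjusted p 0.890). Ehhadh, the peroxisomal bifunctional enzyme and a PPAR alpha target, differed by -0.36 (adjusted p 0.281). Pdk4, which restrains glucose oxidation, differed by -1.0 (adjusted p 0.728), and Cpt1a, which admits fatty acids to mitochondria, by 0.05 (adjusted p 0.962).

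Acot3, a peroxisomal member, was higher with aspirin and clopidogrel than in vehicle mice or with sulindac, and was the one member called. With aspirin and clopidogrel it was at 8.67, 10.05, 10.27, 10.33, 10.60 and 11.38, with a mean of 10.22 ± 0.89 (SD, n = 6). Over all 9 vehicle mice the mean was 7.30 ± 1.38 (SD, n = 9). Vehicle mice without HCC were at 5.72, 6.50, 8.25, 9.35 and 9.35, and those with HCC at 6.11, 6.23, 6.81 and 7.37. AspClo_60, at 8.67, lay below 2 vehicle mice, and the other 5 lay above all 9. The log2 difference was 2.92 (SE 0.740, 95% interval 1.40 to 4.44), or 7.56-fold higher, with an adjusted p of 0.0349. It was rank 8 by size among genes that were higher. The exact two-sided permutation p over 5005 arrangements was 0.0014. Since Acot3 was chosen with these results known, the test is not independent evidence. Its probe set, like the brighter one of Acot2, is of the type that may match related transcripts, and the part that Acot4 or other paralogs take in its signal was not tested.

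Between the drug arms, Acot3 was 3.07 higher with aspirin and clopidogrel than with sulindac (SE 0.725, 95% interval 1.59 to 4.56). This is 8.41-fold, with an adjusted p of 0.0379 and an exact permutation p of 0.003. Sulindac mice were at 5.25 at the lowest, 6.50 at the median and 10.87 at the highest, with a mean of 7.15 ± 1.79 (SD, n = 10). Sulin_16, at 10.87, lay above 5 of the 6 mice of the other arm, so the arms overlapped. Sulindac against vehicle differed by -0.15 (adjusted p 0.964). Healthy mice were at 5.35, 6.65, 8.25, 8.58 and 8.94 (mean 7.55 ± 1.51, SD, n = 5). Aspirin with clopidogrel against healthy gave 2.66 (SE 0.850), not called at an adjusted p of 0.0929, and the 2 mice without Xist gave 1.80 (SE 1.17, adjusted p 0.758). Leaving out Sulin_16, which enters that fit through the shared spread, made it a call with an adjusted p of 0.0434. In the order of group means, the step from vehicle without HCC up to aspirin with clopidogrel (2.38) was larger than the SD of either group. No step between neighbouring groups was so in the other 8 members.

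The call for Acot3 depended on single mice. Leaving out 1 of AspClo_58, AspClo_61, AspClo_63 or AspClo_64, or 1 of Veh_high_798, Veh_high_1770 or Veh_high_1831, ended the call against vehicle, with log2 differences of 2.69 to 2.91 and adjusted p-values of 0.0538 to 0.107. Between the drug arms, leaving out 1 of the same 4 AspClo mice, or 1 of Sulin_15, Sulin_17, Sulin_18, Sulin_20, Sulin_21, Sulin_23 or Sulin_25, gave 2.84 to 3.06 with adjusted p-values of 0.0547 to 0.109. Against the vehicle mice without HCC alone, the difference was 2.38 (adjusted p 0.177). Against those with HCC alone, it was 3.59 (adjusted p 0.0508).

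The call for Acot3 was also lost without the 4 mice with Xist signal. Acot3 was at 10.65 ± 0.51 (SD, n = 4) in these mice, and at 8.67 and 10.05 in the other 2 of the arm. The 4 differed from vehicle by 3.35 (SE 0.840, adjusted p 0.0175) and from sulindac by 3.50 (SE 0.827, adjusted p 0.0173), where 4.92% and 2.20% of all genes were called. The 2 mice without Xist differed from vehicle by 2.06 (SE 1.09, adjusted p 0.654) and from sulindac by 2.21 (adjusted p 0.474), where 0.0468% and 0.351% of genes were called. Within the arm, the 4 minus the 2 gave 1.29 for Acot3 (SE 1.21, 95% interval -1.20 to 3.78, adjusted p 0.770). The labels give no sex or strain, and the part of Xist status and Nnt level in the Acot3 difference was not tested.

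Acot1 and Acot2 lay the other way within the same arm. Acot1 was at 6.30, 6.70, 6.93 and 7.57 in the 4 mice with Xist and at 9.04 and 9.81 in the others, without overlap. In this split 8 of 9 members did not overlap, all but Acot5, where 24.5% of all genes did not. The Acot1 difference was -2.55 (SE 0.716, adjusted p 0.0684). Acot2 was at 6.16, 6.76, 6.90 and 7.53 against 9.10 and 9.76, a difference of -2.59 (SE 0.739, adjusted p 0.0732). Acot8 (-0.51, adjusted p 0.144), Acot12 (-0.43, adjusted p 0.283) and Acot13 (0.37, adjusted p 0.327) had unadjusted p-values below 0.05 as well. That makes 5 of 9 members, where 12.1% of all genes had one. Acot1, Acot2, Acot8 and Acot12 also moved together between mice of the same group, so the members in these counts are not separate observations. No member was called in this split, in which 1.71% of genes were. The means of the whole arm for Acot1 and Acot2 thus joined 2 sets of mice with unlike levels. Against vehicle, the 2 mice without Xist differed by 1.64 for Acot1 (adjusted p 0.490) and the 4 with Xist by -0.91 (adjusted p 0.362).

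**Figure D2:**
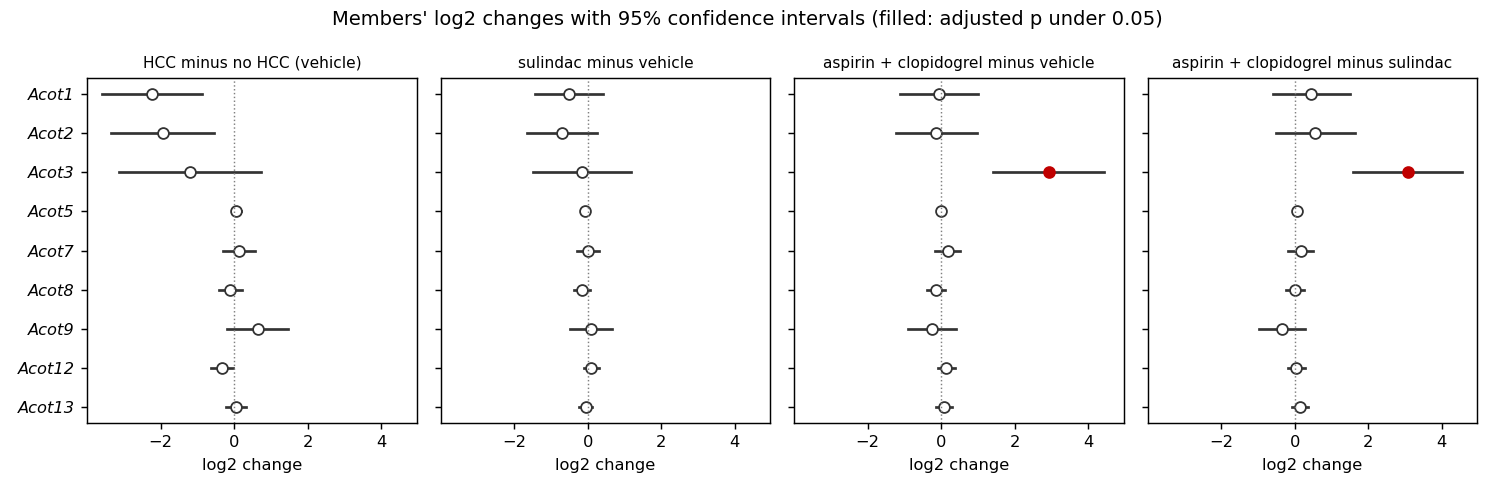
Log2 difference of each measured member with its 95% interval for HCC within vehicle, each drug arm against vehicle and the arms against each other, with filled points where the adjusted p was below 0.05. The filled points are those of Acot3 for aspirin with clopidogrel against vehicle (2.92) and against sulindac (3.07).

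Other genes of peroxisomal fatty acid metabolism were called in both directions with aspirin and clopidogrel against vehicle. Among 19 peroxisomal genes, Abcd2, a transporter of very long-chain acyl-CoA, rose by 1.68 (adjusted p 0.00289) and Eci3, an enoyl-CoA isomerase, by 1.59 (adjusted p 0.00675). In the same list Pex11a, a peroxisome proliferation factor, fell by 0.76 (adjusted p 0.0150) and Hsd17b4, the D-bifunctional protein, by 0.34 (adjusted p 0.0159). Among 20 other PPAR alpha targets, Cidea, a lipid droplet protein, fell by 3.66 (adjusted p 0.00516) and Cyp4a12a, a fatty acid omega-hydroxylase, by 3.32 (adjusted p 0.00582). Among 20 mitochondrial oxidation genes, Acadl, the long-chain acyl-CoA dehydrogenase, rose by 0.17 (adjusted p 0.0167). None of 18 acyl-CoA synthetases, 19 other thioesterases and acyltransferases or 17 clock genes was called.

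Within the arm, Eci3 was 2.31 higher (adjusted p 2.94e-06) and Cyp4a12a differed by -4.12 (adjusted p 0.00147) in the 4 mice with Xist against the other 2. Against vehicle, the 2 mice without Xist differed by 0.05 for Eci3, by -0.57 for Cyp4a12a, by 0.80 for Abcd2 and by -2.97 for Cidea. They differed by -0.32 for Pex11a, by -0.14 for Hsd17b4 and by 0.23 for Acadl, and none of these was called. Ppara differed by 0.06 over the whole arm (adjusted p 0.932), Cpt1a by -0.08 (adjusted p 0.804), Ehhadh by 0.18 (adjusted p 0.348) and Pdk4 by -1.34 (adjusted p 0.218). Summed erythroid markers (3 of 6 measured) were at 11635 to 15088 in this arm and 10864 to 14581 with sulindac, and at 3841 to 10849 in vehicle mice. Their part in the Acot3 difference was not tested.

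For sulindac against vehicle, 0 of 9 family members were called, and 0 had an unadjusted p below 0.05. Their differences ran from -0.69 for Acot2 to 0.10 for Acot12. In the related lists, Cry1 fell by 1.56 (adjusted p 0.00407), and no synthetase, thioesterase, oxidation or PPAR alpha gene was called. Dbp differed by 2.91 (adjusted p 0.0681).

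Between the drug arms, 4 genes of the related lists were called beside Acot3: Eci3 (1.60), Abcd2 (1.16) and Acadl (0.16) were higher with aspirin and clopidogrel, and Cyp4a12a (-2.91) was lower. The 2 mice without Xist gave 0.06, 0.29, 0.22 and -0.16 for these genes in turn, and none was called. Against healthy mice, Abcd2 rose in both arms, by 1.27 with sulindac and by 2.43 with aspirin and clopidogrel, and Etfdh, which passes electrons from fatty acid oxidation to ubiquinone, rose by 0.22 and 0.27. Cry1 was also lower in both, by -2.61 and -2.11, and in vehicle mice with HCC, by -2.27. Nr1d2, a clock repressor, was higher in both arms (1.64 and 1.51). With sulindac against healthy, Amacr (0.27) and Dbp (3.45) were called higher, and Nfil3 (-1.18) and Nudt8 (-0.37), a coenzyme A diphosphatase, lower. With aspirin and clopidogrel against healthy, Acadl (0.22) and Eci3 (1.61) were called higher, and Pex11a (-0.79) and Cyp4a12a (-4.11) lower. The 2 mice without Xist differed from healthy by 0.28 for Acadl, 0.06 for Eci3, -0.35 for Pex11a and -1.36 for Cyp4a12a. Of the genes named for this comparison, Acadl, Etfdh (0.41) and Cry1 (-2.28) were called in those 2 mice, where 0.211% of all genes were, and Abcd2 (1.56) and Nr1d2 (1.52) were not. These comparisons share the healthy mice, and no Acot gene was called in those against healthy.

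**Figure D3:**
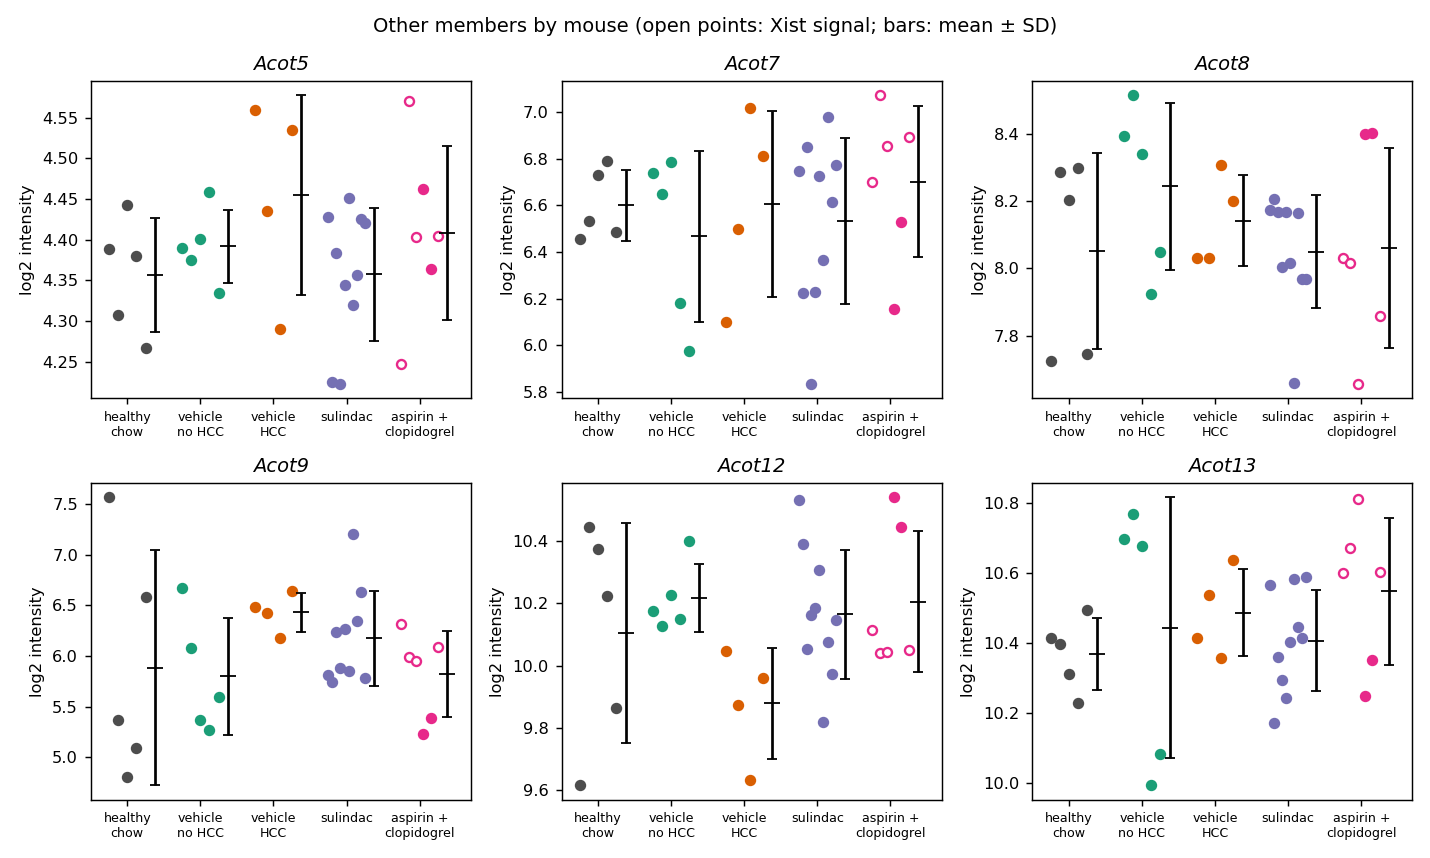
Log2 intensity of the other 6 measured members in each of the 30 mice by group, with bars at the mean ± SD and open points for the 4 aspirin and clopidogrel mice with Xist signal. Acot9 varied most between mice among these members, with the healthy mouse Hlth_1798 highest at 7.57.

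Acot9, a mitochondrial thioesterase, was the most variable of the hotdog-fold members. It was at 4.80, 5.09, 5.37, 6.58 and 7.57 in healthy mice, at 5.27, 5.37, 5.60, 6.08 and 6.68 in vehicle mice without HCC, and at 6.18, 6.43, 6.48 and 6.65 in those with HCC. The healthy mice alone covered the range of all 30. HCC within vehicle gave 0.64 (adjusted p 0.690), and no comparison was called for Acot9. Sulindac mice were at 5.75 to 7.21 (mean 6.18 ± 0.47, SD, n = 10) and mice with aspirin and clopidogrel at 5.23 to 6.32 (mean 5.83 ± 0.43, SD, n = 6).

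No comparison was called for the remaining members. Acot13, a mitochondria-associated long-chain thioesterase also known as Them2, stayed between 9.99 and 10.81 in all 30 mice, with group means of 10.37 to 10.55. Acot8, a peroxisomal thioesterase of broad substrate range, stayed between 7.66 and 8.51. Acot7, a cytosolic thioesterase best known from brain, stayed between 5.84 and 7.07. Acot5, a further peroxisomal member on chromosome 12, stayed between 4.22 and 4.57, near the dim end of the array, where true differences are compressed. Acot12 had group means of 9.88 to 10.22.

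The within-group SD placed the members far apart among the 17097 genes, whose median SD was 0.121. Acot3 had an SD of 1.47 (rank 17), Acot2 of 1.06 (rank 46), Acot1 of 1.03 (rank 51) and Acot9 of 0.624 (rank 314). From the lowest to the highest mouse, Acot3 spanned 69.8-fold, Acot2 17.4-fold, Acot1 15.9-fold and Acot9 6.81-fold. The other 5 spanned 1.27-fold to 2.35-fold. Differences of the same size therefore carried different errors, with an SE of 0.147 for Acot12 and 0.663 for Acot1 in the HCC comparison.

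Members also varied together between mice of the same group. Each gene was centred on its 5 group means, and 36 pairs were tested over the 30 mice by permuting mice within groups, with Benjamini-Hochberg adjustment over the 36. Of these, 17 pairs had an adjusted p below 0.05, 12 of them positive and 5 negative. The same count was not taken for pairs of other genes, so it describes these members only. Acot1 and Acot2 gave r = 0.97 (rho 0.94, permutation p 1e-05, the smallest 100000 permutations can give, adjusted p 0.00024), and r = 0.95 without the 2 mice farthest from the median of Acot1. Acot1 and Acot12 gave r = 0.83 (rho 0.80, permutation p 2e-05, adjusted p 0.00024), and 0.79 without the farthest 2. Probe sets of paralogs can share signal, which bears on Acot1 with Acot2. Acot12 belongs to the other structural class and lies on chromosome 13.

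Acot3 followed Acot1 less closely, with r = 0.45 (rho 0.43, permutation p 0.0104, adjusted p 0.0267) and 0.42 without the farthest 2. It was 0.74 in the 26 mice without Xist signal, and 0.34 without Hlth_1798. Acot9 ran opposite to Acot12 with r = -0.77 (rho -0.74, permutation adjusted p 0.00036), and -0.67 without the farthest 2. It ran opposite to Acot1 with r = -0.65 (rho -0.60, permutation p 0.00077, adjusted p 0.00486), and -0.51 without the farthest 2.

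**Figure D4:**
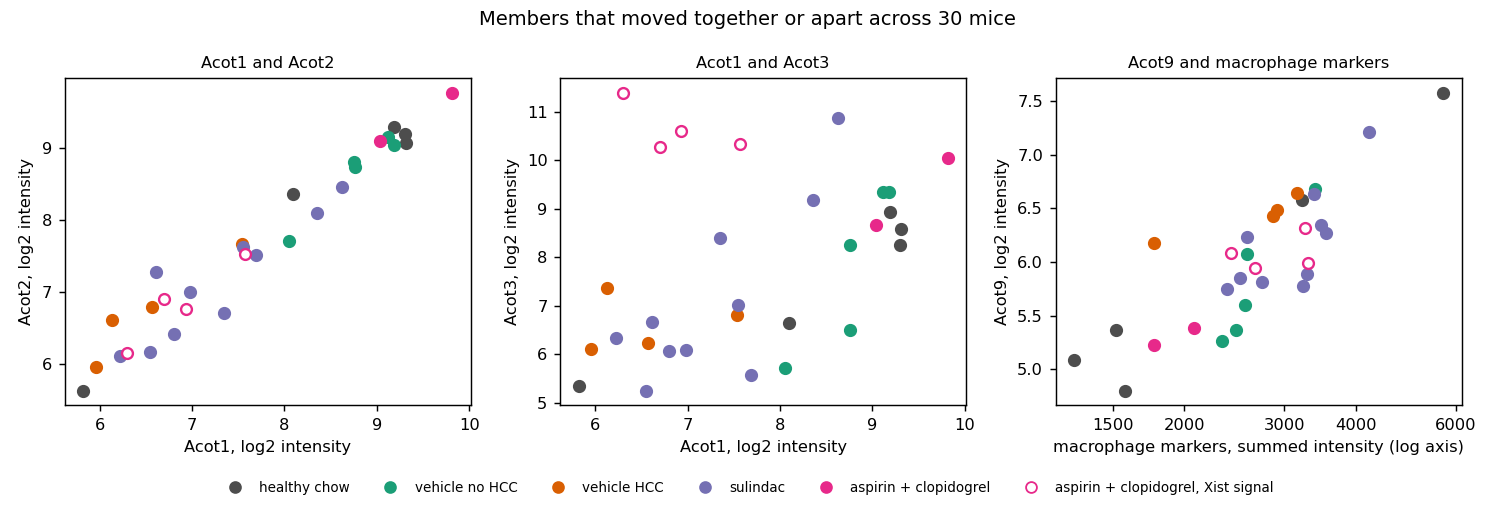
Each point is 1 of the 30 mice: Acot1 against Acot2, Acot1 against Acot3, and Acot9 against the summed intensity of macrophage markers on a log axis, with open points for the 4 aspirin and clopidogrel mice with Xist signal. Acot1 and Acot2 lie along a single line in all groups, the open points lie high in Acot3 at low Acot1, and Acot9 increases with the macrophage sum.

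Macrophage markers moved with several members. The summed intensity of 8 measured markers of 9 was 1281 to 5704 in healthy mice, 2330 to 3391 in vehicle mice without HCC, 1772 to 3161 in those with HCC, 2380 to 4232 with sulindac and 1768 to 3298 with aspirin and clopidogrel. The highest sum, 5704, was that of Hlth_1798, the healthy mouse with the lowest Acot1, Acot2, Acot3 and Acot12 and the highest Acot9. Centred on group means, Acot9 and the log2 macrophage sum gave r = 0.88 (rho 0.84, permutation p 1e-05, adjusted p 0.00099 over 99 relations), and 0.81 without the farthest 2 mice. Acot1 gave r = -0.68 (rho -0.58, permutation p 0.00134, adjusted p 0.0403), and -0.52 without the farthest 2. In all, 8 of the 99 relations of members with marker sums had an adjusted p below 0.05, 6 with the macrophage sum and 2 with the stellate cell sum. No such count was taken for genes outside the family. Acot9 and the stellate cell sum gave r = 0.72 (rho 0.80, permutation p 0.00392, adjusted p 0.0485), and 0.78 without the farthest 2 mice. Acot12 gave r = -0.66 with it (rho -0.68, permutation p 0.00233, adjusted p 0.0403), and -0.65 without the farthest 2. The stellate sum (9 markers, 4 of them near the array minimum) was 2871 to 11224 in healthy mice, 3889 to 7286 with sulindac and 4484 to 5404 with aspirin and clopidogrel. It was 4001 to 6013 in vehicle mice without HCC and 4607 to 6701 in those with HCC, and these 2 ranges overlapped. The healthy group also held the highest Kupffer cell (12075), neutrophil (1200) and cholangiocyte (430) sums of all groups. The part of macrophage or stellate cell content in the levels of Acot9, Acot1 and Acot12 was not tested. The macrophage sums in vehicle mice with and without HCC overlapped too.

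The genes outside the family most like each member were sought among 8327 genes at or above the median mean, by Pearson r over the 30 mice after centring on group means. For Acot1 they were Abhd6 (r = 0.87), a monoacylglycerol lipase, Cyp4a10 (0.83), a fatty acid omega-hydroxylase, and Slc27a2 (0.82), a fatty acid transporter and very long-chain acyl-CoA synthetase. For Acot2 they were Abhd6 (0.85), Cyp4a10 (0.80) and Acaa1a (0.79), a peroxisomal thiolase. For Acot3 they were Serpina6 (0.83), the corticosteroid-binding globulin, Slc16a5 (0.79) and Gstt2 (0.79). For Acot9 they were Nid1, Cstb and Wdr1, each at 0.92. For Acot12 they were Cyp2d13 (0.86), Cyp2d22 (0.84) and Aldh7a1 (0.84), and for Acot13 Slc22a27 (0.86), Tcn2 (0.86) and Churc1 (0.85). For Acot8 they were Mgmt (0.79), Grhpr (0.78) and Higd2a (0.77), and for Acot7 Nadk (0.77), Snrk (0.74) and Golt1a (0.73). The dim Acot5 reached no more than 0.56, with Nrtn, and 0.55 with Commd3 and Pole4. All points share the array platform and the normalization, and these values are descriptions.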

How the data were processed

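The authors deposited 1 intensity per probe set and array. Per the series' design text it was made with ExpressionFileCreator, using RMA with quantile normalization between arrays. The software version is not given in these sources. The deposited intensities are linear, and log2 was taken here. The table holds 45141 probe sets, of which 28898 have 1 gene symbol, 551 several and 15588 none; 28689 of the named ones matched RefSeq by Entrez identifier. For each of 17097 genes the probe set of highest mean over 30 arrays was used, without a filter on low intensity. RMA background correction and quantile normalization compress small differences at low intensity and hold the overall distribution equal between arrays.

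Groups came from the labels. The design text lists 4 vehicle mice and the labels 9; the labels were followed. Group means over all 30 arrays were fitted with limma 3.58.1 in R 4.3.3 (lmFit and eBayes), with the 9 vehicle mice weighted equally, and tested in 9 comparisons with Benjamini-Hochberg adjustment over all genes. Comparisons share control groups. Nothing pairs the mice across groups, and each array is a separate mouse. The fit was also run on simulated data with independent noise for each gene. That simulation held no outlying mice and no Xist or Nnt split, so it cannot speak to their effect on the calls here. All members are named. From each related list, called genes are named, at most 4 per list and comparison, with Ppara, Dbp, Cry1, Cpt1a, Ehhadh and Pdk4 in any case; Hsd17b4 and Pex11a are among these. The family, its members and the lists were chosen with earlier results of these data known. Leaving out the 4 mice with Xist signal was chosen after seeing the data.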

Additional observations from a re-analysis of the deposited data

Results flagged for a closer look

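Among 45 member and group pairs of 4 to 10 mice, 3 had a mouse whose gap to its nearest neighbour passed Dixon's critical value, and chance gives about 1 in 20. Acot2 was at 5.64 in the healthy mouse Hlth_1798, where the next healthy mouse was at 8.37. Acot2 was at 7.71 in Veh_low_794, where the next vehicle mouse without HCC was at 8.74. Acot8 was at 7.66 in Sulin_15, where the next sulindac mouse was at 7.97. The drug arms differed in Acot3 by 3.07 on the log2 scale in the fitted test, and that call was lost without the 4 mice with Xist signal.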

How the results depend on the processing

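No paired analysis was possible because the groups share no replicate numbers. Of 355 counts of called members under the alternatives, 324 were within 1.5 times the count reported. The counts reported were 0 or 1, so this means an equal count, in most cases 0 in both. The call of Acot3 was lost in 7 of the 30 runs without 1 mouse against vehicle, and in 11 of 30 between the drug arms. With 1 mouse left out in turn, the counts ranged from 0 to 1 for aspirin with clopidogrel against vehicle, 0 to 1 between drug arms, 0 to 1 for aspirin with clopidogrel against healthy and 0 to 2 for sulindac against healthy, and were 0 in the other 5 comparisons. For aspirin with clopidogrel against vehicle the count was 0 without Veh_high_1831 and Veh_high_2088 (Acot3 adjusted p 0.0788), against either vehicle group alone, and without the 4 mice with Xist signal. Between the drug arms it was 0 with a trended robust prior (adjusted p 0.0511) and without those 4 mice. Array weights called 1 member for HCC against healthy (Acot1). For sulindac against healthy they called 2 members (Acot1 and Acot2), where 1614 of the 17097 genes were called. Leaving out 4 arrays (Hlth_1798, Hlth_1807, Veh_low_794 and Veh_low_1819) called 1 member for vehicle against healthy (Acot9), where 959 of all genes were called. It called 3 members for HCC against healthy, where 856 of all genes were called, and 3 for sulindac against healthy (Acot1, Acot2 and Acot9 in both). Those arrays had been picked because their profiles lay nearer another group, so leaving them out widens differences by construction. Elsewhere the cause was not tested. Over all genes, aspirin with clopidogrel against vehicle gave 335 calls as reported, 7 without the 4 mice with Xist signal and 819 without the 4 arrays. The drug arms gave 150, 51 without the 4 mice and 407 with array weights. Under the alternatives other than leaving out 1 mouse, the other comparisons moved as widely. They ran from 0 to 959 around 2 for vehicle against healthy, and 0 to 505 for vehicle without HCC against healthy. HCC against healthy ran from 0 to 856 around 17, and HCC within vehicle from 0 to 17 around 15. Sulindac ran from 8 to 261 around 34 against vehicle, and from 440 to 1614 around 510 against healthy. Aspirin with clopidogrel against healthy ran from 37 to 1220 around 473. Leaving out 1 mouse in turn gave 0 to 33 calls for HCC within vehicle and 272 to 732 for sulindac against healthy, beyond these ranges. The 522 values for single members under the alternatives covered chosen members and comparisons, not all. In 24 of them a call was lost and in 17 one was gained, some of these by the unadjusted permutation test. The sign changed in 1, Acot9 for vehicle against healthy, reported as 0.20. With 1 mouse left out, that difference ranged from -0.071 (without Hlth_1965) to 0.62 (without Hlth_1798) and was never called. The mean over Acot2 probe sets gave -1.21 for HCC. Acot5 lay too near the dim end for small differences to be read.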
